A study of Mus musculus with 4 samples.

Results

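The cells described here were spermatids high in Spam1 and Tssk5, taken from the testis of ICR mice, an outbred stock. They were chosen by 6 genes (Tssk5, Slc39a12, Dsg1a, Dopey2, Spam1 and Hs3st3a1): within each of the libraries A0 and A10, the 700 cells with the highest mean of the deposited natural-log values over these genes were taken as members. This gave 700 of the 8941 cells of A0 and 700 of the 9682 cells of A10, or 1400 of the 27060 cells of the whole series. The series asked whether alginate oligosaccharides (AOS), fragments of a brown seaweed polysaccharide, alter spermatogenesis in mice with and without busulfan, an alkylating anti-cancer drug that kills germ cells. Droplet single-cell RNA sequencing counted transcripts by unique molecular identifiers (UMIs). The A0 mice received purified water as the vehicle control and the A10 mice received AOS at 10 mg/kg body weight, both without busulfan, and dosing began at 3 weeks of age. B0 mice received busulfan alone, and BA10 mice were given the same AOS dose after busulfan. Cells of 6 mice were pooled into a single library for each group, so animals cannot be told apart. The length of dosing was given as 5 weeks in one place and 2 weeks in another of the study. With 1 library per group no test was possible, and every interval below is a 95% interval that covers counting error only.

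Spermatids are the haploid cells that meiosis leaves. In their round stage they build the acrosome, a vesicle of enzymes and receptors for crossing the egg's coats, and begin the flagellum. In the later elongating stage they replace histones with transition proteins and then protamines. Spam1 encodes a hyaluronidase of the sperm surface (also called PH-20), Tssk5 is a member of the testis-specific serine kinase family, and Slc39a12 encodes a zinc transporter. Dsg1a encodes a desmosomal cadherin, Hs3st3a1 an enzyme that sulfates heparan sulfate chains, and Dopey2 (now Dop1b) a protein of membrane traffic.

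Of the choosing genes, 5 are placed here on mm10 (GRCm38) at the positions of GENCODE M21: Tssk5 on chromosome 15, 76371952-76374938; Slc39a12 on chromosome 2, 14388316-14494977; Dopey2 on chromosome 16, 93711904-93810590; Spam1 on chromosome 6, 24791188-24801048; and Hs3st3a1 on chromosome 11, 64435332-64522841. Bases upstream of the start of 3 of these genes are shown, because the rule joins these genes and their upstream sequences can be compared. The sequences are from the RefSeq promoter table (GRCm38.p6, plus strand), end where a GENCODE exon begins, and carry any match to 4 searched motifs in capitals.
Spam1: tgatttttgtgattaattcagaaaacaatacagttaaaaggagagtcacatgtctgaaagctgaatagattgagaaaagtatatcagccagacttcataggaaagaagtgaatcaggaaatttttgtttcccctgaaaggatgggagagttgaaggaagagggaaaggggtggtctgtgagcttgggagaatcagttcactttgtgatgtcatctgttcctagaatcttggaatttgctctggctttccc
Slc39a12: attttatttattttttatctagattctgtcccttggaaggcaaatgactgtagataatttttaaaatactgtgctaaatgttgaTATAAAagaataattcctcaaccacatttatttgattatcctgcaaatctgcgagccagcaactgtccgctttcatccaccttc
Hs3st3a1: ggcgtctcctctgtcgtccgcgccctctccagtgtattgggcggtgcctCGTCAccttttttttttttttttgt
These are chr6:24790938-24791187, chr2:14388148-14388315 and chr11:64435082-64435155. The motifs, searched on both strands, were the CRE (TGACGTCA), its half-site (TGACG, which every CRE also holds), the RFX half-site (GTTGCC) and the TATA box (TATAAA). In the 250 bases before the start, they were present in 1.77%, 19.8%, 11.8% and 14.3% of the 27025 genes of the table, and in 3.37%, 31.6%, 14.4% and 7.96% of the 7001 of them that were assessed for expression. Slc39a12 held a TATA box, Hs3st3a1 a CRE and 3 half-site matches, and Dopey2 a CRE half-site before each of its 2 listed starts. A CRE reads as a half-site on each strand, so 2 of the 3 matches of Hs3st3a1 lie within its CRE. Spam1 held none of the 4 motifs. For Spam1 and Slc39a12 the printed stretch runs up to the gene's start, while that of Hs3st3a1 stops short of it, at an exon annotated upstream. The printed Hs3st3a1 stretch holds a half-site read on the opposite strand. These are matches of letters and not measured binding sites.

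The score that chose the members had no gap at the border. In A0 its median was 0.701 in members and 0.0396 in the other cells, and in A10 it was 0.671 and 0. The lowest member of A0 scored 0.605430 and the first cell left out 0.605355, and in A10 these were 0.575302 and 0.575148. The border was therefore set by the number 700, and cells on both sides of it were alike in score. From 0.30 to 0.55 each step of 0.05 held between 253 and 285 A0 cells, after which the counts declined, so a broad group of cells with lower scores stands just outside. Most members carried several of the genes: in A0, 108 members had a UMI of all 6, 290 of 5, 252 of 4 and 49 of 3. In A10 these were 34, 232, 313 and 119 members. A10 members thus carried fewer of the 6 genes each, at a median depth of 11035 UMIs per member against 12604.5 in A0.

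**Figure D1:**
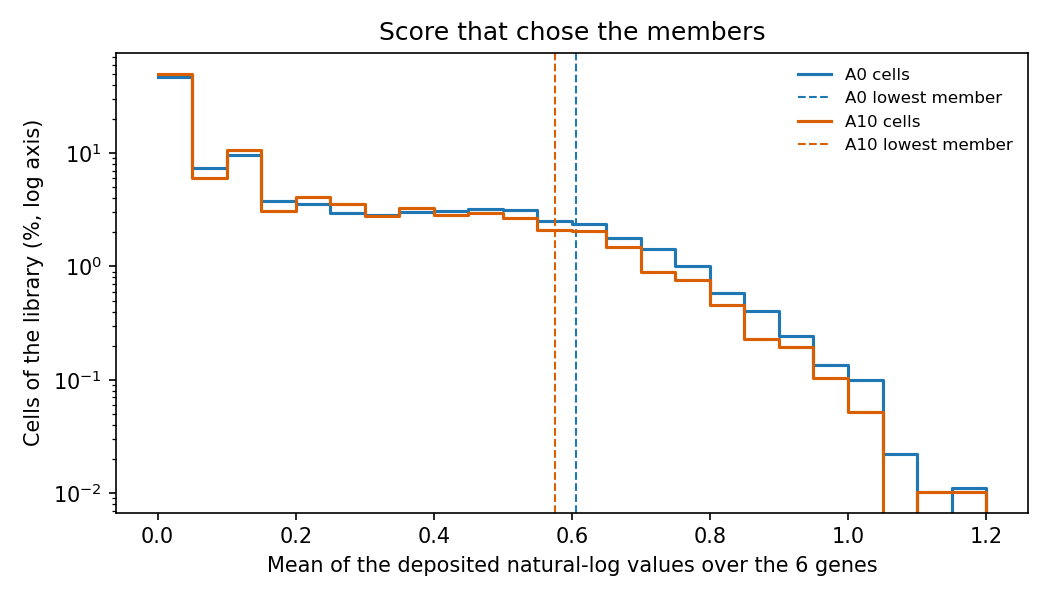
Score that chose the members, as the percent of the cells of A0 and A10 (log axis) in each step of the mean natural-log value over the 6 genes, with dashed lines at the lowest member of each library. The curves fall without a gap at the lines, which stand at 0.605 (A0) and 0.575 (A10).

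The 4 libraries held 8941 (A0), 9682 (A10), 4659 (B0) and 3778 (BA10) cells and between 25323535 and 150812974 UMIs. A0 and A10 shared 135 cell barcodes, which is 1.51% of the A0 cells, and 1 of these marked a member in both. When A0 and A10 were placed in 1 space without aligning them, and without the 6 genes, the libraries stood apart: 82.7% of the 15 nearest neighbours of an A0 member were A0 cells, which were 48.0% of all cells, and 78.8% of those of an A10 member were A10 cells. For this reason every value is given within each library. In that space 43.6% (A0) and 41.5% (A10) of a member's neighbours were members, against 5.07% and 4.65% for the other cells and 7.52% members among all cells. Scrublet, a doublet caller, marked 2% of the A0 members and 4% of the A10 members, against 8.58% and 9.02% of the other cells.

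The values of the 6 genes are a description of the choice and support nothing. Levels are UMIs summed over cells, divided by all UMIs of those cells and scaled to a total of 1e+06 (CPM). Spam1 stood at 309 CPM (299 to 319) in A0 members and 341 (330 to 352) in A10 members, against 61.2 and 62.3 in the other cells. Tssk5 stood at 139 and 133 CPM in members and 17.0 and 14.1 in other cells. Dopey2 stood at 150 and 139 CPM in members against 24.6 and 21.4. Dsg1a stood at 100.2 and 92.1 CPM against 15.2 and 11.5, and Slc39a12 at 65.9 and 61.1 against 7.90 and 6.20. Hs3st3a1, with the fewest UMIs, had 26.0 CPM (23.1 to 29.1) in A0 members and 15.3 (13.0 to 17.9) in A10 members, against 3.34 and 1.63. Dsg1a and Hs3st3a1 have close relatives (Dsg1b, Dsg1c and Hs3st3b1), and reads that the authors' counting could not split between them would blur these levels.

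A member typically held few molecules of each gene, with a median of 4 Spam1, 2 Tssk5, 2 Dopey2, 1 Slc39a12, 1 Dsg1a and 0 Hs3st3a1 UMIs in both libraries. Spam1 was found in 99.7% of A0 members and 37.6% of the other cells, Tssk5 in 90.4% and 17.5%, and Hs3st3a1 in 32.7% and 5.04%. Spermatocytes served as cells that should lack these genes: among the 700 cells per library highest in 6 meiotic genes (Sycp1, Sycp2, Sycp3, Piwil1, Tex101 and Pou5f2), Spam1 was found in 10.6% (8.39 to 13.1) in A0 and 9.14% in A10, Tssk5 in 6.57% and 5.29%, and Hs3st3a1 in 1.14% and 0.714%. That spermatocyte set was deeper, at a median of 16384.5 UMIs in A0 and 16902.5 in A10. Since the 6 genes chose the members, their shares in members had to be high and are given as a description. In the late spermatid set (the 700 cells per library highest in Prm1, Prm2, Tnp1, Tnp2 and Car2, at a median of 10017.5 UMIs in A0), Tssk5 was found in 2.71% of the A0 cells, no more than in spermatocytes.

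The choice was repeated with 1 gene left out at a time, which is again a description, since the 6 genes were picked jointly from these data. Cells chosen by the other 5 genes held the left-out gene at 3.80 (Spam1, 3.64 to 3.97) to 5.11 times (Hs3st3a1, 4.35 to 5.98) the level of the remaining A0 cells, and at 4.03 (Spam1) to 5.59 times (Tssk5, 5.17 to 6.03) in A10. Such a choice kept 558 (Tssk5 left out) to 644 (Hs3st3a1 left out) of the 700 A0 members.

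**Figure D2:**
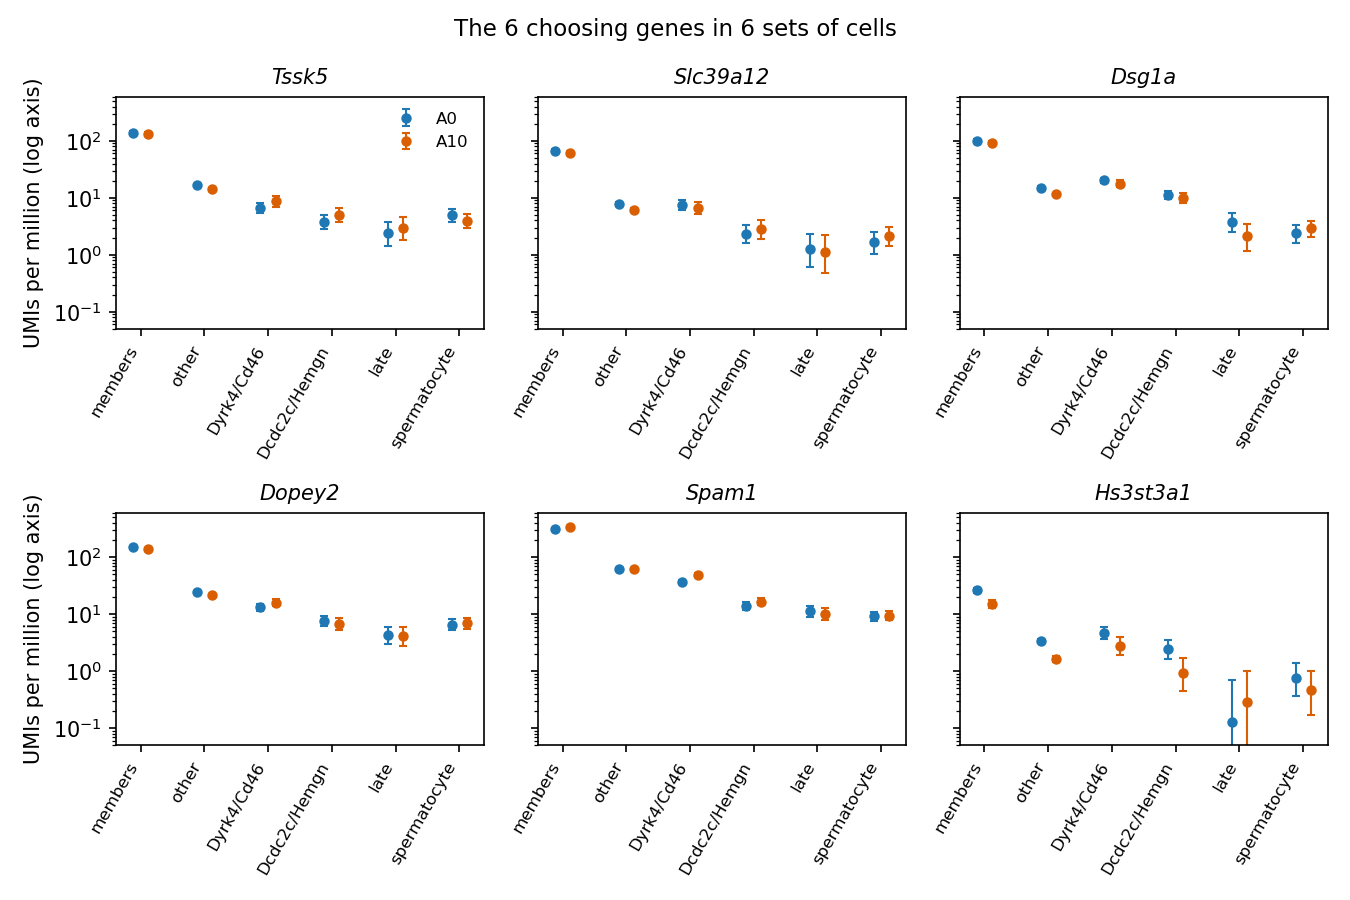
CPM (log axis) of the 6 choosing genes in members, the other cells and 4 comparison sets of 700 cells per library, with 95% counting intervals (A0 blue, A10 orange). Members are highest by construction: Tssk5 stands at 139 CPM in A0 members, 17.0 in the other cells and 2.38 to 6.58 in the comparison sets.

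Across the transcriptome, 971 genes were at least 2-fold higher and 1925 at least 2-fold lower in A0 members than in the other A0 cells, of 9380 genes found in at least 5% of either set, the 6 genes excluded. In A10 these were 1091 and 1949 of 9121 genes. The share past 2-fold in either direction was 30.9% in A0 and 33.3% in A10. Of 9069 genes assessed in both libraries, 880 were higher in both (9.70%) and 1710 lower in both (18.9%), and 0 were past 2-fold in opposite directions. All ratios are on the log2(CPM + 1) scale. With 10 CPM added in place of 1, 429 genes were higher and 676 lower in A0, and 514 and 674 in A10. The same UMIs chose the members, so these counts describe the chosen cells and are no test. The other cells of a library hold spermatocytes and late spermatids too, so a ratio is against a mix of stages.

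The genes with the highest ratios in both libraries, outside the 6, were of varied known function. Slc4a2, an anion exchanger, had 38.6 CPM in A0 members against 8.47 in other cells and 46.7 against 9.45 in A10 (log2 ratios of 2.06 and 2.19). Hs3st3b1, the close relative of Hs3st3a1, had 41.7 against 9.79 CPM and 48.5 against 10.5 (1.98 and 2.10). The transcripts 4930596D02Rik and 4930558K02Rik, of no named function, had log2 ratios of 1.97 and 2.22, and of 1.93 and 2.08. Mms22l, a replication-fork repair protein, and Dscc1, a subunit of a clamp loader for sister chromatid cohesion, had ratios of 1.96 and 1.93 in A0. Clec4a2, a C-type lectin best known from leukocytes, had 238 CPM in A0 members and 236 in A10 members, against 60.9 and 54.9 in other cells. Col6a4, a collagen VI chain, had 83.9 against 21.4 CPM in A0, while Fgb (fibrinogen beta chain) and Apold1 had 126 and 119 UMIs in A0 members. These last 2 were low, at 11.01 against 2.13 CPM (Fgb) and 10.4 against 1.99 (Apold1) in A0, and with 10 CPM added both fell under 2-fold, at log2 ratios of 0.79 and 0.73 for Fgb and 0.77 and 0.60 for Apold1 in A0 and A10. Members were above the other cells for each of these 10 genes in both libraries, which was fixed by picking the genes for their ratios in both.

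Each of these 10 genes was lower than in members in all 4 comparison sets of both libraries. Those sets lie almost wholly among the other cells, against which the genes were picked, so this too is a description. Slc4a2 was at 5.51 CPM in A0 among the 700 cells highest in Dyrk4 and Cd46, at 2.73 in the 700 cells highest in Dcdc2c and Hemgn (both sets are high in other spermatid genes), at 1.38 in the late spermatid set and at 4.12 in the spermatocyte set. Dscc1 was at 176 CPM in A0 members and at 81.3, 25.1, 7.003 and 8.46 in those sets. Col6a4 followed the same order of spermatid sets, with 36.2, 9.21 and 3.63 CPM and 3.29 in spermatocytes. The Dyrk4 and Cd46 set shared 3 cells with the members in A0 and 12 in A10, the spermatocyte set 0 and 1, and the other sets 0 in both.

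The 10 genes lowest in members, picked for their ratios in both libraries, were each higher in the spermatocyte set than in members. Mllt10, a cofactor of histone methylation, had 18.3 CPM in A0 members, 270.3 in the other cells and 1197 in the spermatocyte set. Elfn2 had 3.76 and 74.3 CPM in A0 members and other cells (log2 ratio -3.98) and 479 in the spermatocyte set. Arl6ip1 stood at 15.4 against 178 CPM, Ube2t, an enzyme of DNA crosslink repair, at 5.59 against 79.2, and Rassf1 at 6.73 against 83.4. Alyref, an mRNA export factor, and the histone demethylase Phf2 were each at 1.22 CPM in A0 members. The remaining 3 (Slc24a5, Anp32b and Sap30) had A0 log2 ratios of -3.57, -3.37 and -3.54, and in A10 all 10 lay between -4.18 and -3.36.

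The stage markers placed the members among round spermatids. Of 12 round spermatid markers, 8 were at least 2-fold higher in members in both libraries (9.70% of all genes were), 0 were lower (18.9%), and the median log2 ratio was 1.13 in A0 and 1.262 in A10, against medians of -0.20 and -0.23 over all genes assessed. Tex36 stood at 1039 CPM in A0 members against 337 in the other cells and at 1008 against 300.3 in A10. Spaca1, an acrosomal membrane protein, stood at 907 against 348 CPM in A0 and at 842 against 300.1 in A10. Acrv1, a protein of the acrosomal matrix, had 340.3 against 140 CPM in A0 and 342 against 127 in A10. The 4 others (Tssk1, Tssk2, Zpbp and Acr) had A0 log2 ratios of 0.86, 0.34, 0.53 and 0.47. Summed over the 12 markers, members stood at 7922 CPM in A0 and 7583 in A10. The Dyrk4 and Cd46 set stood at 7306 and 6655, and the Dcdc2c and Hemgn set at 5709 and 5414. High round spermatid markers were thus shared with these sets.

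The elongating markers gave the opposite picture. Of 14, 8 were at least 2-fold lower in both libraries and 0 higher, beside 18.9% and 9.70% of all genes. Prm1, a protamine, stood at 3252 CPM in A0 members, 13053 in the other A0 cells and 64685 in the late spermatid set, and in A10 at 4720, 17550 and 88696. Its level in the spermatocyte set, 3098 CPM in A0 and 3312 in A10, was close to that of members, and Prm1 was found in 100% of the cells of every A0 and A10 set. Free RNA captured with a cell and a cell's own Prm1 cannot be told apart at this level. Tssk6, a kinase of late spermatids, stood at 185 CPM in A0 members, 738 in the Dyrk4 and Cd46 set, 992 in the Dcdc2c and Hemgn set and 1721 in the late spermatid set. Prm1 stood at 17007 and 28516 CPM in the first and second of these sets in A0, and at 24061 and 38805 in A10. The protamine partner genes Tnp1 and Tnp2 had log2 ratios of -1.34 and -1.89 in A0 members over other cells. Hils1, a spermatid linker histone, and Odf1, an outer dense fibre protein, were at 0.48 and 0.43. Members were thus below the Dyrk4 and Cd46 set and the Dcdc2c and Hemgn set in Prm1 and Tssk6, while the late spermatid set was chosen in part by Prm1, so its Prm1 level had to be high.

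**Figure D3:**
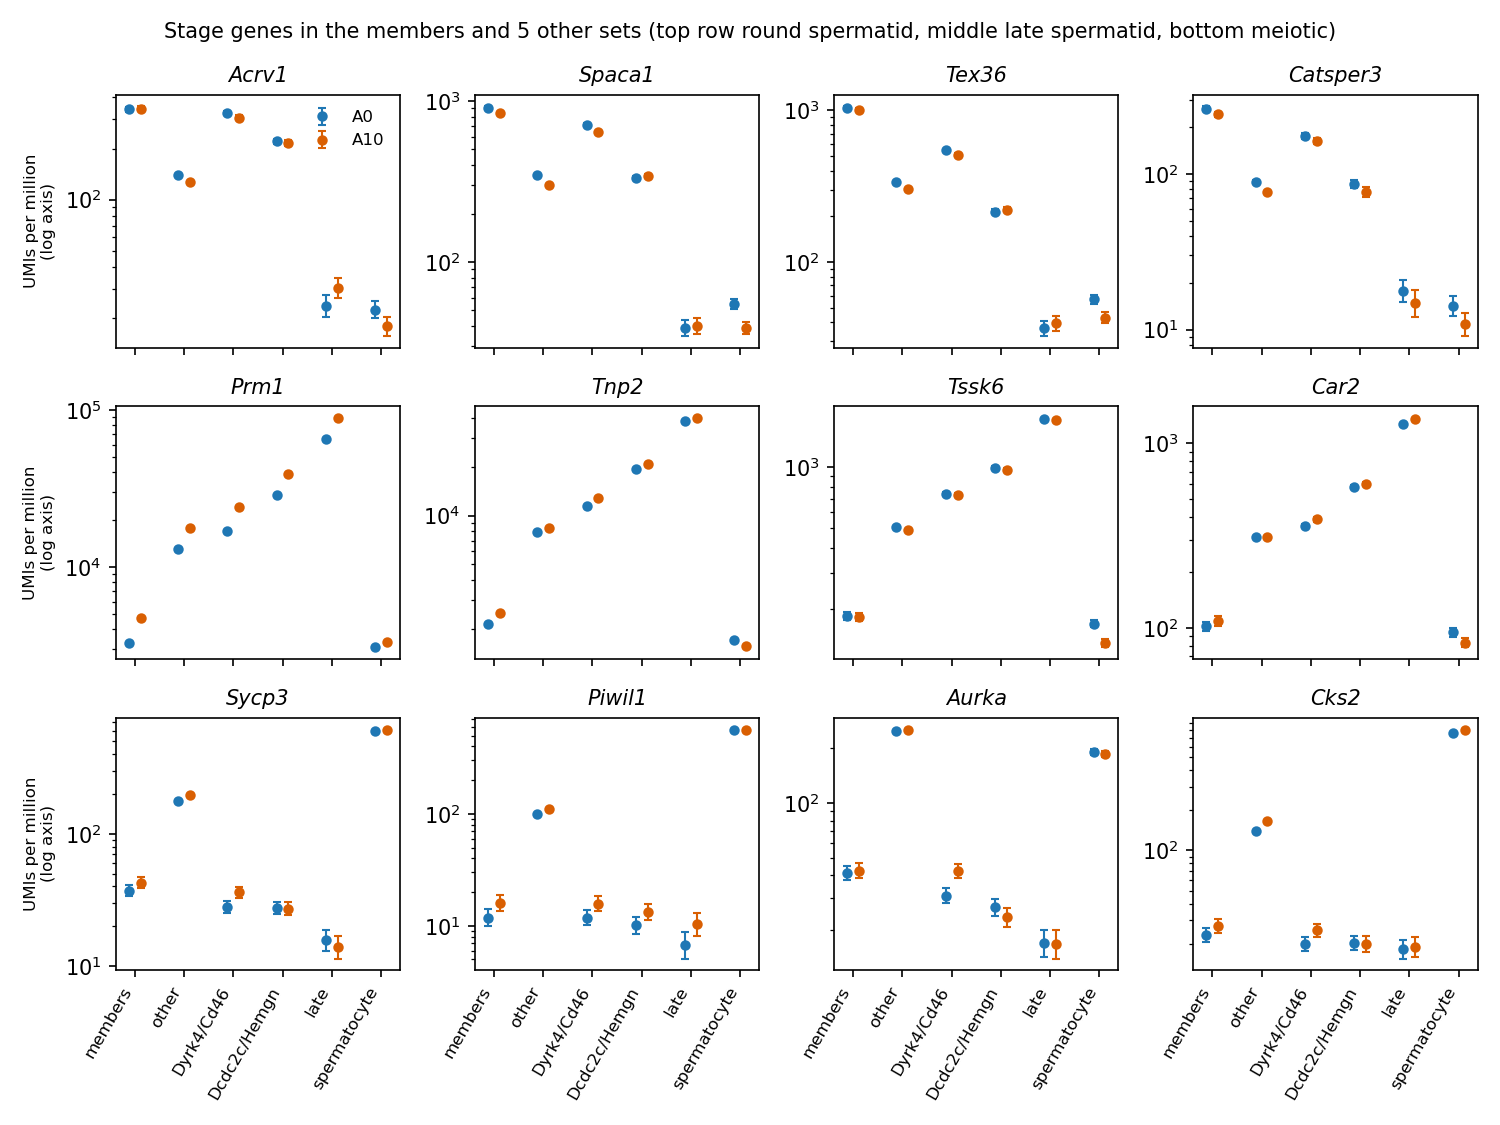
CPM (log axis, own range per gene) with 95% counting intervals for 4 round spermatid genes (top), 4 late spermatid genes (middle) and 4 meiotic genes (bottom) in members, other cells and the comparison sets of A0 (blue) and A10 (orange). Members are highest for Tex36 (1039 and 1008 CPM) and near the spermatocyte set for Prm1 (3252 against 3098 CPM in A0).

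Meiotic genes were mostly lower in members than in the other cells, which include spermatocytes, but their sums were higher than in the other spermatid sets. Summed over 12 pachytene and later markers, A0 members stood at 1640 CPM, the other cells at 2583 and the spermatocyte set at 4508, against 728 in the Dyrk4 and Cd46 set, 448 in the Dcdc2c and Hemgn set and 252 in the late spermatid set. In A10 members the sum was 1591 CPM, against 793, 433 and 252 in these 3 spermatid sets. Over 10 early spermatocyte markers A0 members stood at 424 CPM and the 3 sets at 195, 115 and 50.02, and A10 members at 479 against 219, 118 and 44.9. Sycp1 alone gave 227 CPM of this sum in A0 members and 292 in A10 members. The sum over the 12 pachytene and later markers includes Ccnb1, Ccnb2, Hspa2 and Adam2, which were neither 2-fold higher nor 2-fold lower in both libraries. Such a sum can rest on a few genes and is not a level shared by the list. How many single genes were higher than in the 3 sets was not counted. Of 12 markers of pachytene and later spermatocytes, 8 were at least 2-fold lower in members in both libraries and 0 higher, beside 18.9% and 9.70% of all genes, with a median log2 ratio of -2.49 in A0 and -2.50 in A10. Among the 8, Ccna1 was just under 2-fold with members chosen by mean rank (-0.988 in A0, -0.999 in A10). On thinned cells it was under 2-fold in A10 (-0.961). Piwil1, which binds piRNAs, had 11.8 CPM in A0 members, 98.7 in other cells and 556 in the spermatocyte set, and Aurka, a division kinase, had 41.3 against 248. Of 10 early spermatocyte markers, 7 were assessed, of which 4 were lower (Sycp2, Sycp3, Hormad1 and Spo11) and 1 higher (Rec8), with a median log2 ratio of -1.264 in A0 and -1.28 in A10. With 10 CPM added Spo11 was under 2-fold in A0 (-0.86). Sycp3, a protein of the chromosome axes, had 37.1 CPM in A0 members against 178, and in A10 42.7 against 198. Rec8, a meiotic cohesin, was the early marker higher in members, at 77.4 against 26.6 CPM in A0 and 64.7 against 21.6 in A10, while the spermatocyte set held 5.54 and 3.98. Sycp1, a synaptonemal complex gene, had 227 CPM in A0 members against 128 in other cells (log2 ratio 0.82) and 292 against 141 in A10 (1.05), with 451 and 386 in the spermatocyte set. Ccnb1, Ccnb2 and Hspa2 had A0 log2 ratios of -0.19, 0.12 and -0.11.

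Markers of other cell types were few in members. Summed over their lists, Leydig markers (8 genes) stood at 6.38 and 4.49 CPM in A0 and A10 members, peritubular myoid markers (6 genes) at 3.41 and 3.90, endothelial markers (6 genes) at 6.29 and 6.15, and blood markers (5 genes) at 9.26 and 3.90. Macrophage markers (8 genes) stood at 13.7 and 5.66 CPM and Sertoli markers (8 genes) at 35.2 and 35.3, and each of these sums was at or below that of the other cells except for the myoid list in A10 (3.48 in other cells). Of the 8 Leydig genes, Lhcgr was at 0 UMIs in members of both libraries and Hsd3b1 in A10, and of the 8 Sertoli genes Amh was at 0 in both and Wt1 in A0. The remaining genes of both lists were above 0, and Lhcgr and Amh were also at 0 in several of the comparison sets. Spermatogonial markers (10 genes) summed to 31.9 and 32.4 CPM, below the 57.1 and 58.5 of the other cells. Of 4 assessed, 1 was at least 2-fold higher in both libraries (Kit, at 6.29 against 1.99 CPM in A0) and 1 lower (Id4, at 11.5 against 36.9), counts too small to set against the 9.70% and 18.9% of all genes. With 10 CPM added before the ratio, Kit was under 2-fold, at log2 ratios of 0.44 and 0.50. Of the macrophage genes, Cd74 stood at 3.93 CPM in A0 members against 1.23 in other cells and at 0.683 against 0.547 in A10, and 3 A0 members lay in a cluster led by Dcn, Gsn and Cd74. The marker values do not go against the name spermatids.

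Acrosome and sperm-egg fusion genes were high in members and in the Dyrk4 and Cd46 set alike. Summed over the 33 genes, they stood at 13932 CPM in A0 members and 14169.8 in that set, and at 13554 and 13283 in A10, against 9717 and 8978 in the other cells. Of 33 listed and 32 assessed genes, 12 were at least 2-fold higher in both libraries and 2 lower, where 9.70% and 18.9% of all genes were, and the median log2 ratio was 0.56 in A0 and 0.66 in A10. The lists overlap: of the 12, Acrv1, Spaca1, Spaca7 and Izumo1 were also counted among the round spermatid markers. Hyal5 is counted again with the hyaluronidases. Lyzl6 and Lyzl4, lysozyme-like proteins of the acrosome, stood at 724 against 245 CPM and 464 against 165 in A0. Izumo1, the sperm protein that binds the egg, stood at 212 against 93.7 CPM in A0 and 213 against 80.7 in A10. Spaca3, Spaca4, Spaca7, Eqtn, Zp3r and Izumo3, all acrosomal or membrane proteins, had A0 log2 ratios from 1.03 (Izumo3) to 1.35 (Eqtn). Gopc, a Golgi protein needed early in acrosome building, was lower, at 2.10 against 13.8 CPM in A0, and so was Prss37, at 35.05 against 160. Crisp2 and Spaca9, among the acrosome genes with most UMIs, had A0 log2 ratios of -0.10 and -0.14.

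Hyaluronidases and heparan sulfate enzymes gave 3 higher and 1 lower of 9 assessed of 28 listed, beside 9.70% and 18.9% of all genes. Hyal5, another sperm hyaluronidase whose gene follows Spam1 on chromosome 6, stood at 209.6 CPM in A0 members against 78.5, and at 223 against 69.1 in A10. Hyal6, from the same cluster of genes, had 52.9 against 53.2 CPM in A0 (log2 ratio -0.01). Hs3st4 stood at 10.5 against 3.04 CPM and Extl2, which acts earlier in chain synthesis, at 11.4 against 27.2. With 10 CPM added Extl2, the gene counted as lower, was under 2-fold, at log2 ratios of -0.80 in A0 and -0.95 in A10. Hs3st4, counted as higher, would be under 2-fold too at its A0 levels.

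The relatives of the other choosing genes were mixed. Of 7 testis serine kinase genes and partners, Tssk4 was higher (405 against 160 CPM in A0, 386 against 141 in A10) and Tssk6 lower, while Tssk1, Tssk2, Tssk3, Tsks and Tsacc lay between log2 ratios of -0.34 and 0.86 in A0. Of 11 zinc transporters assessed, 0 were higher and 3 lower, near the 9.70% and 18.9% of all genes. Of the 3, Slc39a13 stood at 14.3 against 45.5 CPM in A0. Of 3 desmosome genes assessed of 16 listed, Dsg1b stood at 24.7 against 6.06 CPM and Pkp1, a plakophilin, at 26.5 against 8.83 in A0, while Jup, which links cadherins to the plaque, stood at 3.41 against 8.35. These are 3 genes, too few to read against the 9.70% and 18.9% of all genes. With 10 CPM added Pkp1 was under 2-fold in both libraries (0.95 and 0.83), Dsg1b in A10 (0.96) and Jup in A0 (-0.45). Dsg1c had 0.787 CPM in A0 members. The 14 desmosome genes measured summed to 57.6 CPM in A0 members and 43.5 in A10 members. In the Dyrk4 and Cd46 set the sums were 58.6 and 49.2, and in the Dcdc2c and Hemgn set 46.8 and 42.3. A raised desmosome sum was thus not particular to the members.

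ADAM genes and their chaperones, which act in sperm transport and egg binding, gave 8 higher and 0 lower of 20 assessed, beside 9.70% and 18.9% of all genes. Adam29 stood at 150 against 46.3 CPM in A0 and 158 against 43.7 in A10, and Adam24, Adam25, Adam26a, Adam26b and Adam39 had A0 log2 ratios from 1.48 (Adam24) to 1.62 (Adam25). Several of these lie in families of similar copies, so their separate levels are uncertain. Pdilt, a testis chaperone, stood at 283 against 109 CPM. The sperm ADAMs with most UMIs, Adam5, Adam3 and Adam32, had A0 log2 ratios of 0.04, 0.13 and 0.03. The calcium channel of the flagellum gave a similar split: Catsper1, Catsper3, Catsper4 and Efcab9 were higher (Catsper3 at 262 against 89.4 CPM in A0), and Catsper2 had a log2 ratio of -0.12. With Kcnu1 and its partner Lrrc52, the channel list gave 6 higher and 1 lower of 16 assessed, beside the same shares of all genes. Summed over its 17 genes measured, members stood at 2060 CPM in A0 and 1994 in A10. The Dyrk4 and Cd46 set was close, at 1888 and 1762. Catsper3 and Catsper4 were also counted among the round spermatid markers.

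Flagellum and axoneme genes were near the average of the library, with 5 higher and 4 lower of 33 (9.70% and 18.9% of all genes) and a median log2 ratio of 0.15 in A0 and 0.14 in A10. Spag6, of the central pair, stood at 747 against 247 CPM in A0, Akap14 at 131 against 46.5 and Tekt2, a tektin, at 866 against 391. The axonemal dynein Dnah8 stood lower, at 277 against 710 CPM, as did Rsph1, of the radial spokes, at 794 against 1884. Testis glycolysis genes gave 0 higher and 2 lower of 17, close to the shares of all genes, with Ldhc at 7758 against 7800 CPM in A0. RNA storage and translation genes gave 0 higher and 4 lower of 21 (Piwil1, Piwil2, Pabpc6 and Rbm44), where the share lower among all genes was 18.9%, so this count is at the background. Chromatin packaging genes gave 0 higher and 6 lower of 14, beside the same shares of all genes, while the histone gene H3f3b stood at 2242 against 1265 CPM (log2 ratio 0.83). Of the 6, Prm1, Prm2, Tnp1 and Tnp2 were also counted among the elongating markers.

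Among 21 regulators of transcription assessed, 4 were higher and 3 lower, beside 9.70% and 18.9% of all genes, and the count lower is near that background. Sox5 stood at 582 CPM in A0 members against 192, and at 538 against 163 in A10, and Sox6 at 95.5 against 45.6 in A0. Taf7l, a testis subunit of the basal transcription machinery, stood at 43.8 against 15.3 CPM and Klf17 at 56.3 against 20.6. Crem, the main activator of spermatid genes, had 771 against 435 CPM in A0 (log2 ratio 0.82) and 720 against 401 in A10 (0.84), short of 2-fold. Mybl1 and Tcfl5, regulators of meiotic genes, stood lower, at 5.51 against 32.1 and 56.8 against 157 CPM. Ovol1 was also lower.

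**Figure D4:**
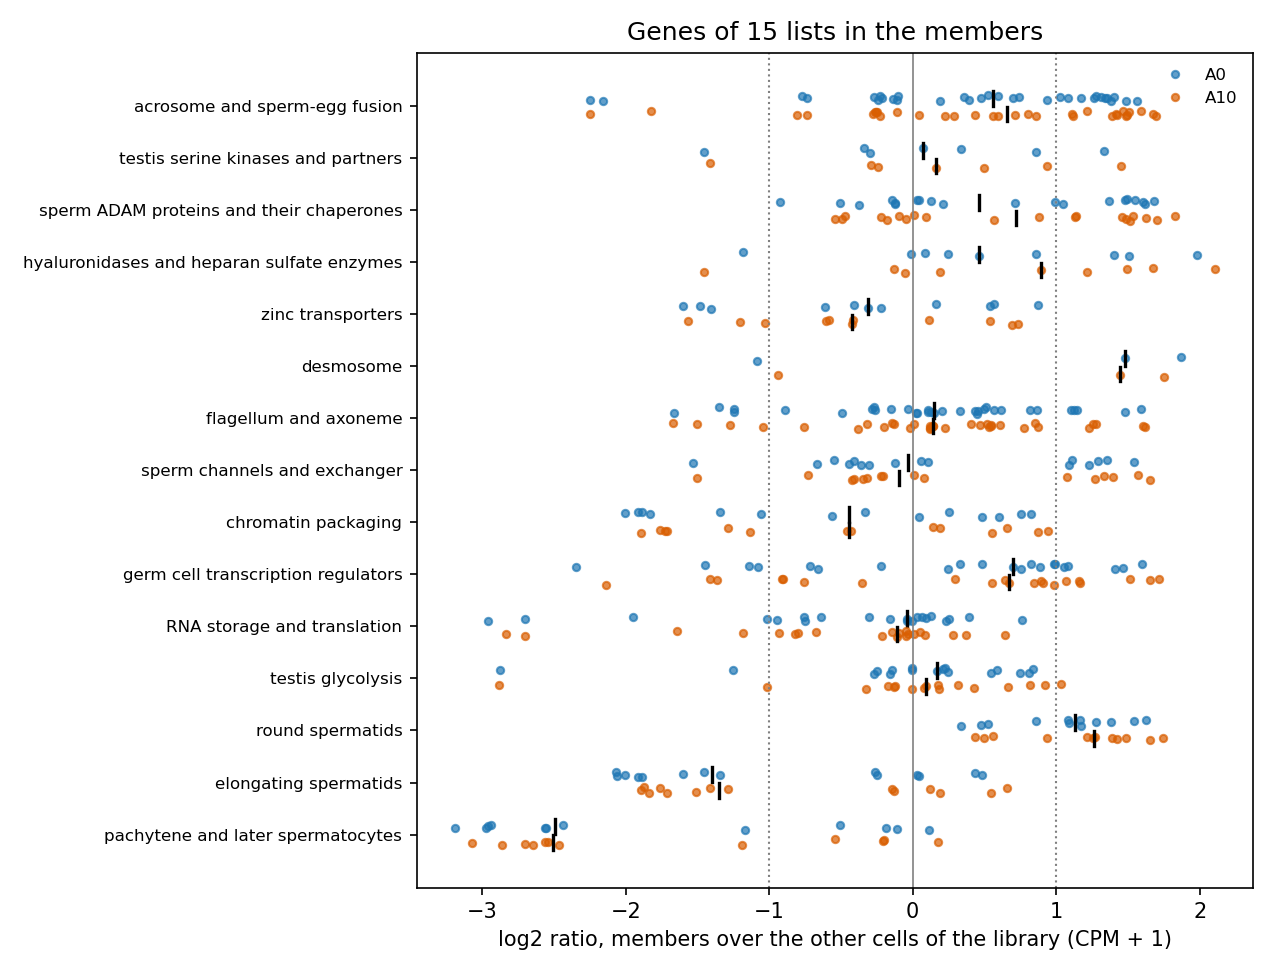
log2 ratio of members over the other cells of their library (CPM + 1) for the assessed genes of 15 lists, with a point per gene (A0 blue, A10 orange), a black bar at each median and dotted lines at 2-fold. Round spermatid markers lie above 0 (medians 1.13 and 1.262) and pachytene markers mostly below -1 (medians -2.49 and -2.50).

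A larger share of the X-linked and Y-linked genes than of the autosomal genes was higher in members, a comparison added after the values were seen. During meiotic prophase the X and Y are silenced, and round spermatids express part of their genes again. Of 245 X-linked genes assessed, 85 (34.7%) were at least 2-fold higher in members in both libraries and 10 lower, and of 12 Y-linked genes 10 were higher and 0 lower. On the autosomes 731 of 8473 (8.63%) were higher and 1641 (19.4%) lower. UMIs of X-linked genes made up 1.18% of all UMIs in A0 members and 1.20% in A10 members, 0.873% and 0.853% in the other cells and 0.186% and 0.168% in the spermatocyte set. All 3 other spermatid sets were above the members in both libraries, at 1.69% and 1.76% in the Dcdc2c and Hemgn set, 1.64% and 1.65% in the Dyrk4 and Cd46 set, and 1.63% and 1.65% in the late spermatid set. Y-linked genes summed to 453 and 406 CPM in members, 235 and 205 in the Dyrk4 and Cd46 set, and 28.6 and 22.0 in the spermatocyte set. Named after their values were seen, the X-linked Samt4 stood at 46.0 against 13.5 CPM in A0 and Rhox11 at 33.0 against 10.6. Of the Y-linked genes, Eif2s3y, a translation factor subunit, stood at 87.2 against 31.7 CPM in A0 and 73.1 against 27.1 in A10, and the zinc finger gene Zfy1 at 16.3 against 7.05. Zfy2 had log2 ratios of 0.89 and 1.15. The largest Y-linked ratios were of Gm20826 and Gm20854 (1.68 each in A0), which belong to families of similar copies and are uncertain. The count of 10 Y-linked genes includes such copies and is uncertain too. Many of the X-linked and Y-linked genes were low in CPM, and these counts were not repeated with 10 CPM added.

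The members were spread over several clusters of the cells of A0 and A10, built without the 6 genes. Of 22 clusters, the 2 with most members held 40.7% and 35.7% of the A0 members and 34.7% and 42.0% of the A10 members. The first had Spam1 at 250.4 CPM, Tex36 at 943 and Sycp3 at 48.5, and the next had Spam1 at 293, Tex36 at 1102 and Sycp3 at 29.9. The third, with 8.14% and 7.71% of the members, had Spam1 at 265 CPM, Tssk5 at 42.1 and Tssk6 at 300.3, against a Tssk6 of 117 and 155 in the first 2. The fourth, with 7% and 7.29%, was deeper (median 15252 UMIs) and had Prm1 at 20140 CPM beside Spam1 at 162, while Prm1 lay between 2747 and 3774 CPM in the other 4 clusters described. The fifth, with 5.71% and 6.43%, had more Sycp3 (93.3 CPM) and Aurka (122). Whether the fourth holds cells captured together was not tested. Clusters that held members also held cells that were none, and the clusters' genes are a description.

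Within the members, the 350 with the higher scores differed from the other 350 in the 6 genes by construction and little in the round spermatid genes Tex36 and Acrv1. Tex36 stood at 1058 and 1024 CPM in A0 and 1004 and 1011 in A10, and Acrv1 at 352 and 330.2 in A0. The late genes Prm1, Tnp1 and Tssk6 were higher in the lower-scoring 350 of both libraries. Those 350 were also deeper, at medians of 13279.5 against 12099 UMIs in A0 and 11642.5 against 10739 in A10. Prm1 stood at 3013 and 3459 CPM in A0 and at 4236 and 5145 in A10. Tnp1 stood at 1857 and 2021 in A0 and 2315 and 2659 in A10, and Tssk6 at 169 and 199, and 170 and 194. The 350 shallower members (median 10668.5 UMIs in A0) had Spam1 at 338 CPM and the 350 deeper ones (median 20210 UMIs) at 295, and in A10 380.4 and 323. Prm1 went the other way, at 2542 and 3592 CPM in A0, and so did Tnp1 (1637 and 2093) and Tssk6 (156 and 199). Score and depth were not separated for these late genes. Shallower members stood higher than deeper ones in all 6 genes in A0 and in 5 of them in A10, the exception being Hs3st3a1 (15.2 and 15.4 CPM). The members were chosen on depth-scaled values of these same 6 genes, so this order describes the choice and supports nothing.

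A10 was compared with A0 within the members, which addresses AOS without busulfan. Of 8346 genes found in at least 5% of the members of either library, 16 were past 2-fold (0.192%), 5 of them higher in A10 (0.0599%) and 11 lower (0.132%), and the median log2 ratio was -0.04. Since 5% in either library sufficed, most of the 16 passed the filter only through the library where they were high. Gm14295 was found in 1.29% of A0 and 5.57% of A10 members, and 1600014C10Rik in 14.9% and 1.14%. The count is therefore a description and supports nothing. With 1 library each, AOS and a difference between the libraries or the pooled mice cannot be told apart. The count depended on the choices made: it was 1 gene with 10 CPM added in place of 1, and 58 with 350 members per library.

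Of the genes higher in A10 members, Atp6ap1l, named for its likeness to a proton pump accessory subunit, had the most UMIs: 833 in A0 members and 1744 in A10 members, which is 72.8 CPM (67.9 to 77.9) and 170.2 CPM (162 to 178). It was also higher in the other cells, at 73.4 and 137 CPM. Speer1, of a family of similar copies, had 23.2 and 52.3 CPM in members and 31.4 and 112 in other cells. Gm14295, Mfap5 and Nanos3 had 9, 27 and 17 UMIs in A0 members and 42, 77 and 42 in A10 members. With 10 CPM added these 3 (0.39, 0.50 and 0.30) and Speer1 (0.91) fell under 2-fold. Nanos3, at a log2 ratio of 1.04, was also under 2-fold with 350 cells per library (0.54), with 1400 (0.96), by mean rank (0.89), on thinned cells (0.89), at matched lowest UMI counts (0.89) and without Dopey2, Dsg1a, Hs3st3a1 or Tssk5 in the choice (0.75 to 0.93). Mog, Shtn1, C4b, Snrnp200 and Gm5861 lay under 2-fold, with log2 ratios from 0.94 to 1.00. Shtn1, a regulator of neuronal polarity, had 21.8 CPM (19.2 to 24.7) in A0 members and 43.6 (39.7 to 47.9) in A10 members, with 8.34 and 13.3 in other cells.

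The largest decrease was of 1600014C10Rik, with 125 UMIs in A0 members and 8 in A10 members, or 10.9 CPM (9.09 to 13.0) and 0.781 CPM (0.337 to 1.54). The other cells had 7.19 and 0.787 CPM, so the difference was present outside the members too. Pcdh9, a protocadherin, had 86 and 9 UMIs, and Rtkn2 121 and 28, each with the same direction in other cells. Ddx6, an RNA helicase of mRNA storage, had 35.4 CPM (32.0 to 39.0) in A0 members and 15.03 (12.7 to 17.6) in A10 members, against 21.5 and 18.4 in other cells. Gabpb1, a transcription factor subunit, had 17.9 and 6.54 CPM in members and 20.8 and 14.2 in other cells. Osbpl7, Cela2a, Ppp1r14c, Cr2 and Cd320 had between 40 and 88 UMIs in A0 members and between 6 and 27 in A10 members. With 10 CPM added, 0 genes were past 2-fold lower in A10 members, and Osbpl7 was also under 2-fold with 1400 cells per library (log2 ratio -0.54), by mean rank (-0.90), on thinned cells (-0.73) and without Dsg1a in the choice (-0.89). Cd320 was under 2-fold by mean rank (-0.82) and Ddx6 on thinned cells (-0.99). For all 10 genes A10 was lower among the other cells too, with log2 ratios from -2.20 (1600014C10Rik) to -0.21 (Ddx6), and 0 genes were past 2-fold in opposite directions in members and other cells.

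**Figure D5:**
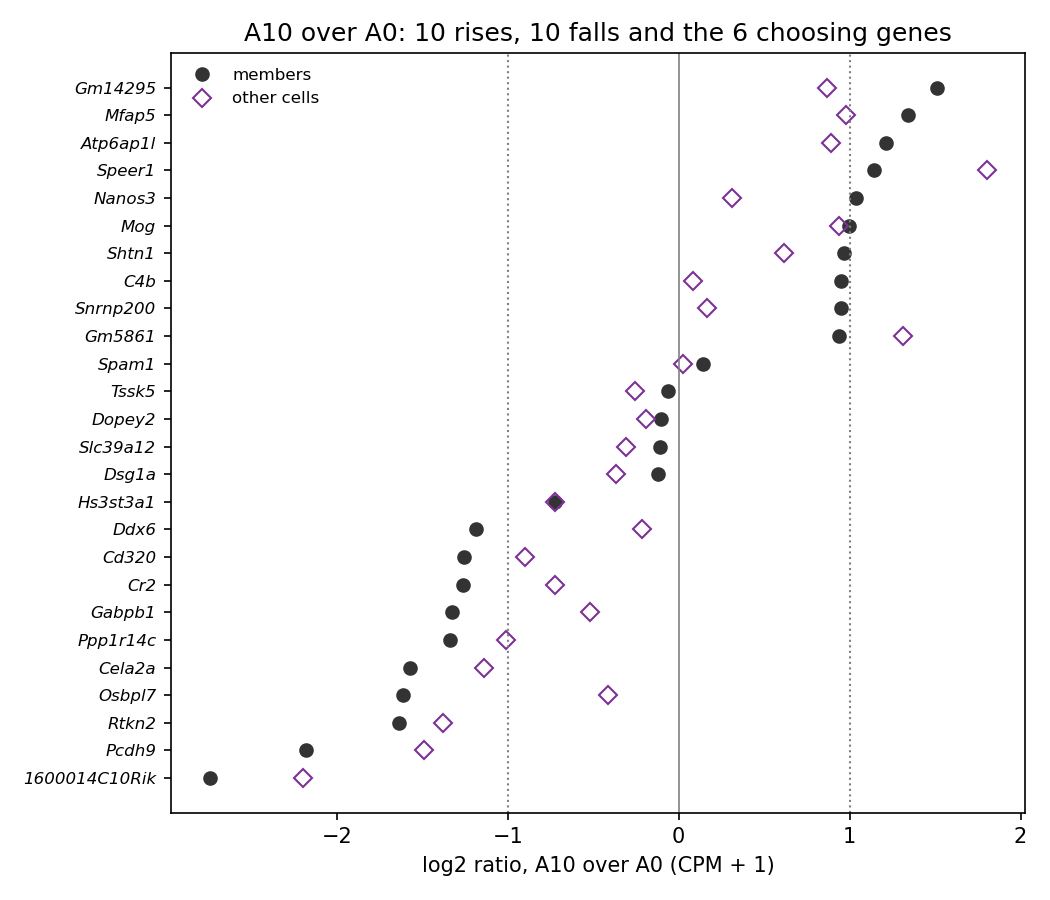
log2 ratio of A10 over A0 (CPM + 1) in members (filled circles) and other cells (open diamonds) for the 10 genes highest in A10, the 10 lowest and the 6 choosing genes, with dotted lines at 2-fold. Circles and diamonds lie on the same side of 0 for all 20 genes, from 1.51 (Gm14295) to -2.74 (1600014C10Rik) in members.

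In the 12 lists by function 0 genes were past 2-fold between A0 and A10 members, where 0.192% of all genes were, so lists of this size would hold about none in any case. Their median log2 ratios ranged from -0.40 (2 desmosome genes) to 0.12 (chromatin packaging). Prm1 had a log2 ratio of 0.54 in members and 0.43 in other cells. Of the choosing genes, Hs3st3a1 was lower in A10, at a log2 ratio of -0.72 in members and -0.73 in other cells, and the other 5 lay between -0.12 (Dsg1a) and 0.14 (Spam1).

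The number of cells that reached the lowest A0 member score was 700 in A0 (7.83%), 582 in A10 (6.01%, 5.55 to 6.503), 17 in B0 (0.365%, 0.213 to 0.584) and 51 in BA10 (1.35%, 1.01 to 1.77). Depth differs among these libraries, with medians of 12685, 10948, 4214 and 17989 UMIs per cell. In a count added after the values were seen, with every cell thinned to 5000 UMIs and the 700th A0 score of the thinned cells as the limit (several cells tie at it), 795 A0 cells (8.89%), 736 A10 cells (7.60%), 27 B0 cells (1.90%, 1.25 to 2.75) and 64 BA10 cells (1.69%, 1.31 to 2.16) reached it, and 3235 shallower B0 cells were left out. Spam1 stood at 16.2 CPM over all B0 cells and 18.8 over all BA10 cells. In A0 and A10 it stood at 309 and 341 CPM in the members and at 61.2 and 62.3 in the other cells. The members were chosen in part for high Spam1, so whole libraries and members are not like sets. These values come from the choosing genes alone, with a limit set in A0, so they do not say what the cells past it in B0 and BA10 were, and members were not chosen in those libraries. In bulk or in sums over all cells, fewer cells of a type and less RNA per cell cannot be told apart.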

How the data were processed

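Droplet single-cell RNA sequencing was done on 4 testis libraries, 1 per group. The submitters' processing notes name Cell Ranger 2.2.0 and the mouse build mm10. The authors deposited 1 table of natural log values, ln(1 + UMIs per 10000), for 18419 genes in 27060 cells. It lists 0 mitochondrial genes, and the remaining cell filters were not rerun. The methods name 5000 cells in the calling step, which the 3778 to 9682 cells per library do not match. UMIs were recovered from the values, and 100% of the values above 0 were whole at a tolerance of 0.001. Cells were grouped by the library prefix of their column, as the labels give it.

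UMIs were summed over members and over the other cells of the library and divided by the summed total (CPM). Genes found in at least 5% of the cells of either set were assessed, with 1 CPM added before log2, and called past 2-fold. There is no replicate, so no test and no p-value was made. Intervals are exact Poisson for sums and exact (Clopper-Pearson) binomial for shares, at 95%, and cover counting error only. Low UMI counts are therefore imprecise, whatever the fold. Thinning took each cell to 5000 UMIs at random. Doublets called by Scrublet were kept and left out in an alternative. Nearest neighbours (15) and Leiden clusters used 30 principal components of 2000 variable genes without the 6 choosing genes. Scripts used python 3.11.15, numpy 2.4.6, scipy 1.17.1, pandas 2.3.3, scanpy 1.11.5 and leidenalg 0.10.2, and the counting of calls was tested on simulated data. Of the symbols, 17547 matched GENCODE M21.

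The members and all lists were chosen with earlier results of these data known. Named genes were the 10 highest and 10 lowest by the smaller A0 and A10 ratio (the larger for the lowest), the 10 highest and 10 lowest for A10 over A0, the 6 choosing genes, and up to 6 genes per list by CPM; a few further list genes were named after their values were seen. Alternatives changed the pseudocount, detection filter, averaging, number of cells, score, depth, doublets and choosing genes.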

Additional observations from a re-analysis of the deposited data

How the results depend on the processing

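In 16 alternatives the number of genes past 2-fold between members and the other cells stayed within 1.5 times the 2896 (A0) and 3040 (A10) reported, except with 10 CPM added (1105 and 1188) and with genes found in at least 20% of cells (1641 and 1685). The A10 over A0 count of 16 moved more, to 1 with 10 CPM added, 4 at 20% of cells, 37 with no detection filter, 28 as the mean over cells, 58 with 350 cells per library and 26 without Spam1 in the choice. Named genes were followed in 14 of these settings, not under the changed detection filters, and there 39 of 1162 values that were 2-fold or more in A0 (genes under the 5% detection limit included), 35 of 1176 in A10 and 48 of 266 for A10 over A0 fell under 2-fold, and 0, 0 and 5 changed direction. The 5, all of genes under that limit, were Cyp17a1 (0.70 with 1400 cells), Hba-a1 (0.18 with the mean rank and 0.14 without Spam1) and C1qc (0.032 without Slc39a12 and 0.034 without Dopey2). The cause of these moves was not tested. Members chosen on thinned cells shared 418 (A0) and 426 (A10) of the 700, and by mean rank 506 and 558. No paired analysis was possible because each group is 1 library, and no replicate could be left out.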
